A study of Mus musculus with 2 samples.

Results

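The genes described here are 9 acute-phase and interleukin response genes: Saa1, Saa3, Hp, Lcn2, Serpina3n, Il6, Ptx3, Il1rl1 and Il1r2. They were found by symbol among the 28001 features of each count table, and each of the 9 matched 1 feature. The genes were chosen by name, with their levels across fibroblast subsets and between the 2 libraries known from earlier results of these data. Their levels across cell types, fibroblast clusters and libraries are therefore a description, with no test.

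Acute-phase proteins are secreted in large amounts when tissue is injured or infected, mostly by the liver but also locally by stromal cells. IL1 and TNF act on them through NF-kB and C/EBP factors, and IL6 acts through STAT3. In muscle, fibroblasts receive such signals after damage and pass them on as IL6 and chemokines. Receptors of the IL1 family can transmit the signal, as Il1rl1 can for IL33, or catch the ligand without signalling, as the decoy Il1r2 does for IL1.

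The study followed cells that had expressed Hic1, a marker of mesenchymal progenitors, in C57BL/6J mice that carried Hic1CreERT2/CreERT2 and Rosa26LSLtdTomato/tdTomato. Tamoxifen (TAM) let the Hic1-driven Cre switch on tdTomato permanently, so only cells with Hic1 activity at the time of TAM, and their descendants, were labelled. In the E10-P56 library, TAM was given by gavage to the pregnant mother at E10 (7.5 mg), and in the adult pulse library it was injected on 5 days (2.5 mg a day) at 8 weeks of age. The fetuses labelled at E10 were delivered surgically and raised by foster mothers of another strain. The tdTomato+ cells of adult skeletal muscle (SkM) were sorted and profiled by 10x single-cell RNA-seq, for E10-P56 from pooled tibialis anterior muscles. Both libraries are described as collected at P56, although the study's own account gives a later day for the adult pulse and takes that library from earlier work. There is 1 library per labelling time, with no replicate, so labelling time cannot be told apart from library, animal, handling or software version, and the intervals below (95%) cover counting error only.

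After cells under 1500 UMIs or over 10% mitochondrial UMIs were left out, 6087 E10-P56 cells (median 7648 UMIs) and 8567 adult pulse cells (median 7344 UMIs) remained, of 8236 and 9195 barcodes. The 2 libraries share 15 barcode strings. Clusters were built without the 9 genes and named from marker genes. Fibroblast-like cells, with Pdgfra, Gsn, Cd34 and other fibroblast markers, made up 4336 of the E10-P56 cells (71.2%, median 8706.5 UMIs) and 7195 of the adult pulse cells (84.0%, median 7652 UMIs). They formed 10 clusters, called here by 1 to 3 of their leading genes, and by 1 in the plots. Of the fibroblast-like cells, 90.7% in E10-P56 against 74.7% in the adult pulse sat in clusters that came to at least 90% from 1 library, so cluster and library overlap heavily. A level is given as CPM, the UMIs of the gene scaled to the total UMIs of the summed cells, and a share of cells is given after each cell was thinned to 1500 UMIs. Types and clusters are ranked within a library only where it held at least 50 of their cells.

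The 9 genes lie on 7 chromosomes in the GENCODE annotation of GRCm38, the build of the mm10 reference. Saa3 (chr7:46711998-46715700) and Saa1 (chr7:46740497-46742980) lie close together on the minus strand of chromosome 7, and Il1r2 (chr1:40074079-40125231) and Il1rl1 (chr1:40429570-40465415) lie on the plus strand of the same stretch of chromosome 1. Hp is at chr8:109575128-109579172 and Lcn2 at chr2:32384633-32388252, both on the minus strand. Serpina3n (chr12:104406729-104414329), Il6 (chr5:30013114-30019981) and Ptx3 (chr3:66219910-66225805) are on the plus strand. The RefSeq promoter table for GRCm38.p6 held windows for 8 of the 9 genes, with Hp the exception. The 250 bases upstream of the start were searched on both strands for the C/EBP letters TTGCNNAA, the AP-1 site TGANTCA, the STAT site TTCNNNGAA and the NF-kB consensus.

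The C/EBP letters stood in the windows of 6 of the 8 genes (Saa1, Saa3, Lcn2, Il6, Ptx3 and Il1rl1) and in 9.56% of all 32851 windows of the same length. The NF-kB letters stood in 5 (Saa1, Saa3, Lcn2, Serpina3n and Il6), against 23.2% of all windows. The STAT letters were found only in the Il1r2 window (7.02% of all windows) and the AP-1 letters only in the Il6 window (6.75%). A match describes letters and not a bound site. Shown are the windows of the genes furthest apart between the libraries over all fibroblast-like cells (Saa3, Il1rl1) and of those least apart (Saa1, Il6). They are printed 5′ to 3′ on the strand of the gene, and capitals mark the motif matches. Il1rl1 has alternative starts, of which 2 are listed, and the counts do not tell their transcripts apart.
Saa3, chr7:46715677-46715926, minus strand: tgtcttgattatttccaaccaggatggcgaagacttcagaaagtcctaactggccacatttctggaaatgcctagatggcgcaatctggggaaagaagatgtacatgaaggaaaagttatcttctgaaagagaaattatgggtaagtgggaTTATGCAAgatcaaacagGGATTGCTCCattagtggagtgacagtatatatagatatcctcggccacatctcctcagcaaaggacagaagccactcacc
Saa1, chr7:46742981-46743230, minus strand: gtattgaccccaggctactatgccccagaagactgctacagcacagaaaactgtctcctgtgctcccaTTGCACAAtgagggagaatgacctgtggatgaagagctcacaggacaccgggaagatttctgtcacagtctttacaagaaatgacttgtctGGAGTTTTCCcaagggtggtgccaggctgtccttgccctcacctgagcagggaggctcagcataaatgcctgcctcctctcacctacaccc
Il6, chr5:30012864-30013113, plus strand: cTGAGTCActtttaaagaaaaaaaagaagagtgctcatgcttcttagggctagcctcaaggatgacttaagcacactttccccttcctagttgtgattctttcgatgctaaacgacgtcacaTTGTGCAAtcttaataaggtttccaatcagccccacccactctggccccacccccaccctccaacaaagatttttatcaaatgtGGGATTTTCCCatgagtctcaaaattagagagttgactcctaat
Il1rl1, first start, chr1:40429320-40429569, plus strand: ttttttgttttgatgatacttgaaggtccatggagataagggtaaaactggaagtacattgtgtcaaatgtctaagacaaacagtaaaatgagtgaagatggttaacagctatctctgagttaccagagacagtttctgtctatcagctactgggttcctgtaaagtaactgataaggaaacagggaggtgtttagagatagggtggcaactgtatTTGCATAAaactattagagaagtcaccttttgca
Il1rl1, second start, chr1:40439379-40439628, plus strand: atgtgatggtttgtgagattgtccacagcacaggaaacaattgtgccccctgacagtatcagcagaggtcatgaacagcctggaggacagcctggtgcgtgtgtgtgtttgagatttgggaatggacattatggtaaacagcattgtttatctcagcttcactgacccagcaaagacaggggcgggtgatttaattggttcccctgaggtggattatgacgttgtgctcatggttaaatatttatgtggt

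In the Saa3 window the C/EBP letters lie 99 bases and the NF-kB letters 81 bases upstream of the start, and in the Saa1 window they lie 182 and 91 bases upstream. The Il6 window holds AP-1, C/EBP and NF-kB letters at 249, 128 and 44 bases, which makes it the only window shown with 3 kinds of match. The first Il1rl1 window holds the C/EBP letters 34 bases upstream and no NF-kB letters, and the second holds none of the 4 motifs. Of the printed Saa3 window, 24 bases fall in an annotated exon of Saa3 itself. Among the windows not printed, 197 of the 250 bases for Lcn2 and 117 for Il1r2 fall in annotated exons. The Lcn2 and Il1r2 windows lie inside the annotated span of their gene, so their matches are upstream of the listed start only.

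Across named cell types with at least 50 cells, 4 of the 9 genes were at their highest in fibroblast-like cells of E10-P56 (Hp, Serpina3n, Ptx3 and Il1r2), where 5.93% of 12402 genes had their highest level in that cell type. In the adult pulse the count was 3 of 9 (Ptx3, Il1rl1 and Il1r2), against 10.4% of genes. The other genes peaked in other named groups, which differed from gene to gene. Cycling-like, perineurial-like, Schwann-like and VSMC-like cells were too few in the adult pulse to be ranked. The cycling-like name comes from cell cycle genes such as Mki67 and Top2a alone. It gives a state and no lineage, and how many of these cells were fibroblasts was not tested. In E10-P56, Saa3 and Il1rl1 were highest in cycling-like cells, Il6 in SMCP-like cells (smooth muscle cell progenitors), Lcn2 in tenocyte-like cells and Saa1 in perineurial-like cells. Among the fibroblast-like clusters, all 9 genes had 1 cluster at least 4-fold above the median cluster, as did 8.26% of genes.

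**Figure D1:**
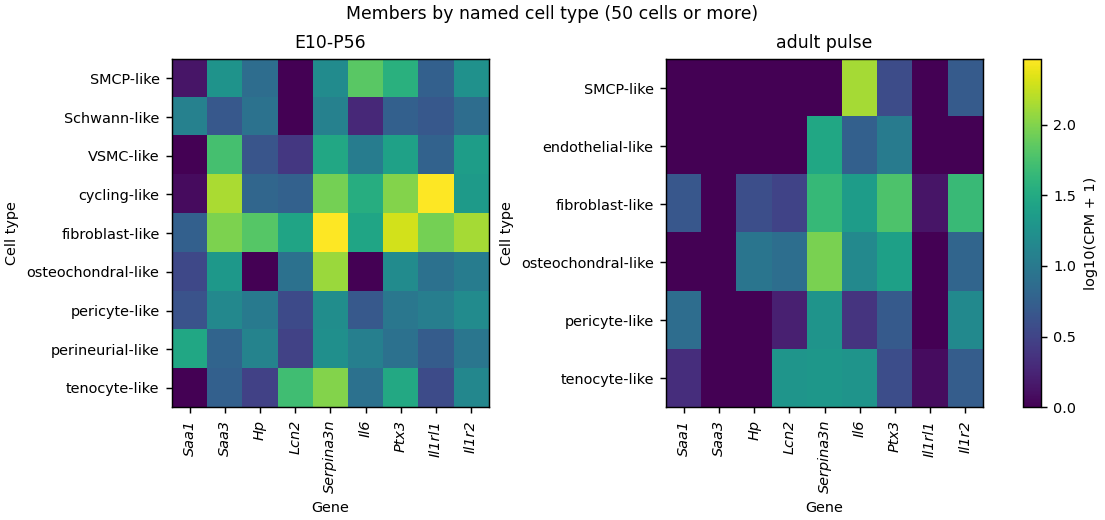
Level of each gene, as log10(CPM + 1), in each named cell type with at least 50 cells of the E10-P56 library (left, 9 cell types) and the adult pulse library (right, 6 cell types). Fibroblast-like cells of E10-P56 are the brightest row for Hp, Serpina3n, Ptx3 and Il1r2, Il6 is brightest in SMCP-like cells of both libraries, and the Saa3 column of the adult pulse is at 0 throughout.

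Saa3 encodes a serum amyloid A that mouse tissues other than liver produce in inflammation. It was present in 1 library only. In E10-P56, 5647 UMIs were counted in 427 of the 8236 barcodes, and in the adult pulse no UMI was counted in any of 9195 barcodes. Of the 12323 features with at least 100 UMIs in E10-P56, 7 were at 0 in the adult pulse, and of the 7500 features with at least 1000 UMIs, 2 were (Saa3 and Mup11, the latter a major urinary protein gene of a family of near-identical copies).

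Within E10-P56 the Saa3 level was 141 CPM (131 to 151) in cycling-like cells, 94.7 CPM (91.9 to 97.5) in fibroblast-like cells and 53.5 CPM (43.9 to 64.6) in VSMC-like cells (vascular smooth muscle). These 3 do not overlap in their counting intervals, but of the 108 UMIs in VSMC-like cells 93 came from 1 cell. Osteochondral-like, SMCP-like and pericyte-like cells followed at 19.4, 17.2 and 13.0 CPM with overlapping intervals, and perineurial-like, tenocyte-like and Schwann-like cells held 5.23, 4.71 and 3.74 CPM. The order among these lower types is not resolved at this depth, and 36 of the 44 SMCP-like UMIs came from 1 cell.

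Most Saa3 counts came from the cells of 1 cluster, whose leading genes included the chemokine genes Cxcl5 and Ccl2 and which is named Ctla2a Ccl8 Chl1 from its leading genes outside the response lists. E10-P56 gave 759 of its cells and the adult pulse 7, at a median of 17174 UMIs a cell. Saa3 reached 262 CPM (253 to 270) there, 46.6 CPM in the Car3 Apoc1 Cxcl13 cluster, 15.9 CPM in Krtdap Bmp3 Dmkn and 10.6 CPM in the Aldh1a2 cluster. The Gdf10 Fmo2 Inmt cluster of E10-P56, with 127 cells, had no Saa3 UMI. Without the Ctla2a cluster, an exclusion chosen after its values were seen, the fibroblast-like level was 20.998 CPM.

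Few cells carried Saa3. Of the 4336 fibroblast-like cells of E10-P56, 244 had a UMI and 162 of those had exactly 1, while 40 cells with at least 10 UMIs held 92.2% of the counts and 7 cells held 50% of them, up to 677 UMIs in 1 cell. After thinning, Saa3 was detected in 2.01% of fibroblast-like cells (1.61 to 2.47), 1.85% of pericyte-like cells (median 3138 UMIs before thinning) and 0 of 140 Schwann-like cells, which allows a share of up to 2.14% by the limit of 3 counts. The share in fibroblast-like cells as a whole thus overlaps that of other sorted types and is read as background. The shares of 4.61% in the Ctla2a cluster (3.23 to 6.36) and 5.41% in cycling-like cells (2.62 to 9.72) were higher, although both intervals reach into the pericyte-like one (0.803 to 3.62). Counting all named types, 52 cells had at least 10 Saa3 UMIs, of which 32 were in the Ctla2a cluster and 10 in the cycling-like cluster.

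**Figure D2:**
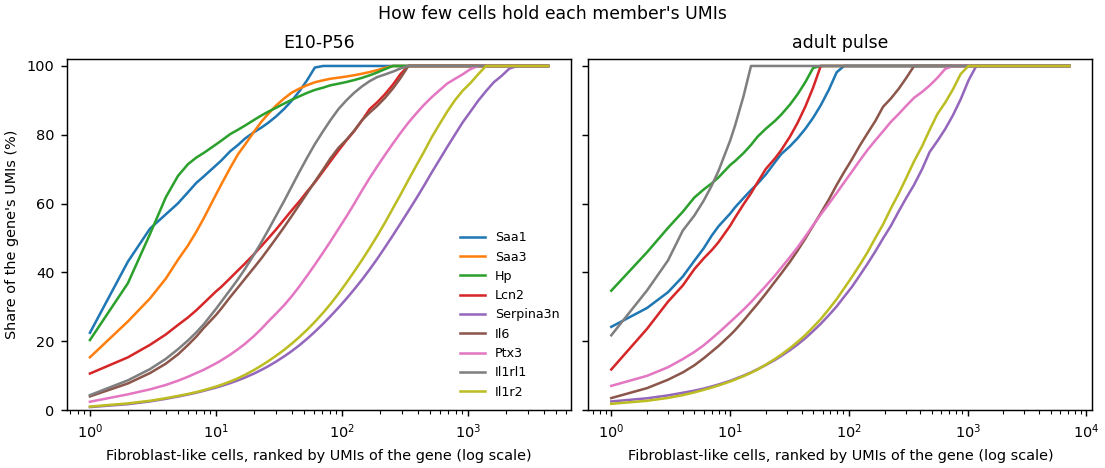
Cumulative share of each gene's UMIs (y, percent) over fibroblast-like cells ranked from the most to the fewest UMIs of that gene (x, log scale) in E10-P56 (left) and the adult pulse (right, without Saa3, which had no UMI). In E10-P56, 3 cells hold 50% of the Saa1 and of the Hp counts and 7 cells 50% of the Saa3 counts, while 187 cells are needed for Il1r2 and 247 for Serpina3n.

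The cells with at least 10 Saa3 UMIs were deep, with a median of 31193.5 UMIs against 8645 in other fibroblast-like cells. All 10 neutrophil markers were at 0 in these 40 cells, so no neutrophil transcript of the list was counted beside Saa3. The sort of the E10-P56 muscle had left out cells with surface markers of blood and endothelial cells. Low counts of immune markers are thus partly set by the sort and are no independent check. Of 10 macrophage markers 6 were at 0, and the sum of the list was 92.4 CPM against 17.2 CPM in the other cells. Over the whole Ctla2a cluster the macrophage list summed to 52.4 CPM, of which 48.4 CPM was Csf1r, with Ptprc and Adgre1 at 0. Among E10-P56 fibroblast-like clusters that list ranged from 1.66 to 52.4 CPM, and its part in the Saa3 level was not tested. Scrublet, a doublet caller, placed 2 of the 40 cells among the 5% with the highest scores.

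Saa1, the main circulating form of serum amyloid A, followed a different pattern. Its level in fibroblast-like cells was 4.68 CPM (218 UMIs) in E10-P56 against 3.70 CPM (219 UMIs) in the adult pulse. Most adult pulse counts lay in 1 cluster, Trf Apod Col9a2, with 171 UMIs in 152 cells and 154 CPM (132 to 180). The same cluster of E10-P56 held 24.1 CPM from 8 UMIs in 62 cells, and every other fibroblast-like cluster with at least 50 adult pulse cells was under 2 CPM. Those 8 UMIs came mostly from 1 cell with 6. Most of the 218 E10-P56 UMIs lay in other clusters, with 92 in Car3 Apoc1 Cxcl13 and 64 in Krtdap Bmp3 Dmkn. Of these, 45 and 49 came from 1 cell each. The levels of these clusters were 10.5 CPM (8.49 to 12.9) and 7.23 CPM. The Car3 interval overlaps that of the Trf cluster (10.4 to 47.5).

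The Trf Apod Col9a2 cluster carried the highest level of the endoneurial marker list among fibroblast-like clusters, 2529.59 CPM summed in E10-P56 against 2074.28 CPM in the adult pulse, where the lowest clusters held 122 and 319 CPM. It also held the highest sum of the Schwann list, at 81.3 and 44.3 CPM. In E10-P56, however, it was highest for the tenocyte, pericyte and SMCP lists too (382, 346 and 337 CPM). In the adult pulse it was highest for the pericyte and SMCP lists (212 and 481 CPM) but not for the tenocyte list. The perineurial list was also highest in it in both libraries (319 and 154 CPM). So were the osteochondral list (90.3 and 146 CPM) and the endothelial list (9.03 and 21.7 CPM). The Schwann list therefore does not set the cluster apart. Saa1 was detected in 11.2% of its adult pulse cells after thinning (6.65 to 17.3), and all 5 adult pulse cells with at least 10 Saa1 UMIs were in it. The 4 such cells of E10-P56 lay outside it, 2 in Car3 Apoc1 Cxcl13, 1 in Krtdap Bmp3 Dmkn and 1 among perineurial-like cells. Among named types of E10-P56, perineurial-like cells had the highest Saa1 level, 28.3 CPM (18.6 to 41.1), with 14 of their 27 UMIs in 1 cell. Schwann-like cells were next at 11.2 CPM, with an overlapping interval. Pericyte-like cells led the adult pulse types of at least 50 cells at 6.61 CPM (3.17 to 12.2), which overlaps the fibroblast-like level, and 21 Schwann-like cells held 5 UMIs (30.6 CPM, 9.94 to 71.5). Reads of Saa1 and of its near-identical copy Saa2 may have been split or lost in counting, so both levels are uncertain; Saa2 stood at 4.44 CPM in E10-P56 against 0.422 CPM in the adult pulse.

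**Figure D3:**
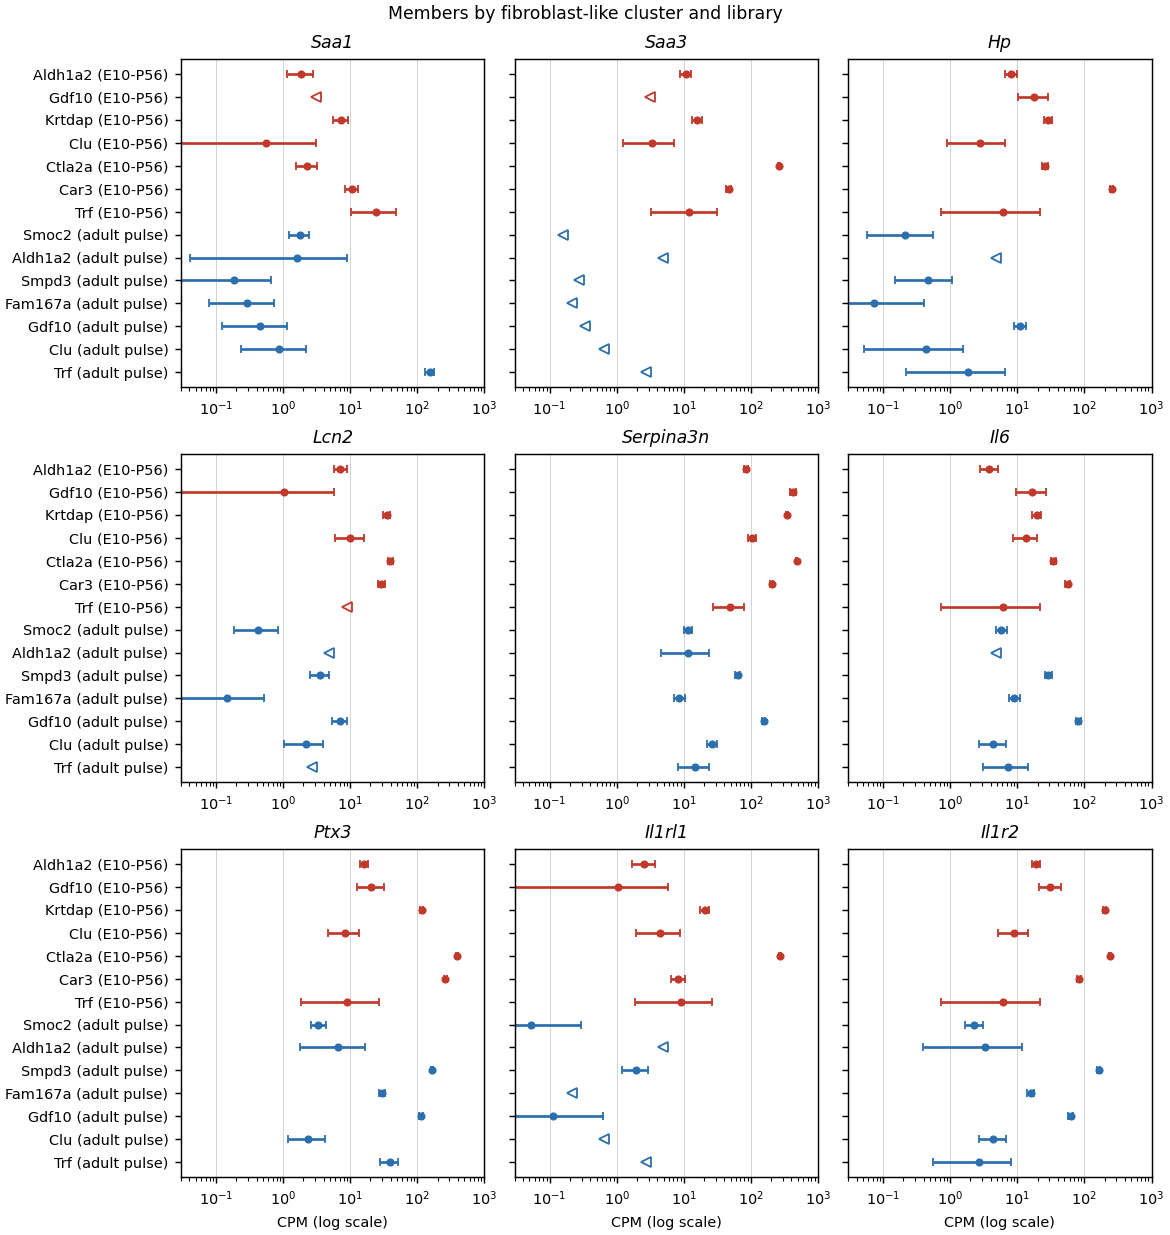
Level of each gene (CPM, log scale) in the fibroblast-like clusters with at least 50 cells of a library, E10-P56 in red and adult pulse in blue, with bars for the 95% Poisson interval and open triangles, drawn at the level of 3 UMIs, where there was no UMI. The Ctla2a cluster is the rightmost of E10-P56 for 6 of the genes, Car3 Apoc1 Cxcl13 for Hp and Il6, and Trf Apod Col9a2 for Saa1 in both libraries.

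Hp encodes haptoglobin, which binds free haemoglobin. In E10-P56 it was at 63.8 CPM (61.5 to 66.1) in fibroblast-like cells and at most 11.5 CPM in any other type with at least 50 cells. The Car3 Apoc1 Cxcl13 cluster, with 679 cells, held 255 CPM (244 to 266), followed by Krtdap Bmp3 Dmkn at 28.7 CPM and Ctla2a at 26.0 CPM, which overlap. In the adult pulse the fibroblast-like level was 2.87 CPM, with Gdf10 Fmo2 Inmt highest among clusters of at least 50 cells at 10.9 CPM (8.86 to 13.3). Of the 170 fibroblast-like Hp UMIs there, 59 came from 1 of the 12 adult pulse cells in Car3 Apoc1 Cxcl13. Osteochondral-like cells held 8.09 CPM there from 6 UMIs, an interval (2.97 to 17.6) that overlaps the fibroblast-like one.

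Hp, like Saa3, was concentrated in few cells. In E10-P56, 3 cells held 50% of its fibroblast-like counts, with up to 605 UMIs in 1 cell, and 26 cells with at least 10 UMIs held 86.7%. The level changed when the mitochondrial limit was moved and the cells were clustered and named anew. It was 23.4 CPM when cells over 5% mitochondrial UMIs were left out and 25.3 CPM with no limit. Limit and clusters changed together, so their parts cannot be told apart. Barcodes over the limit in E10-P56 held Hp at 297 CPM, against 49.0 CPM in all cells kept. Whether stressed or leaking cells carried the transcript was not tested.

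Lcn2 encodes lipocalin 2, which sequesters the iron carriers of bacteria. Tenocyte-like cells led in both libraries, with 50.4 CPM (39.7 to 63.2) in E10-P56 and 18.3 CPM (14.6 to 22.6) in the adult pulse. Fibroblast-like cells were at 26.5 and 2.15 CPM. Tenocyte-like cells thus stood above fibroblast-like cells in level in both libraries, without overlap of the intervals. In E10-P56 their 75 UMIs came from 19 cells. The shares after thinning, 3.31% (1.44 to 6.41) against 2.19% (1.78 to 2.67), overlapped there. In the adult pulse they did not, at 2.35% (1.29 to 3.92) against 0.181% (0.0962 to 0.309). Osteochondral-like cells of the adult pulse, at 6.74 CPM (2.19 to 15.7), overlapped the tenocyte-like level.

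Within fibroblast-like clusters of E10-P56, Lcn2 was at 39.7 CPM (36.5 to 43.2) in Ctla2a, 34.9 CPM (31.1 to 39.0) in Krtdap Bmp3 Dmkn and 29.2 CPM (25.7 to 33.0) in Car3 Apoc1 Cxcl13, with neighbouring intervals overlapping. The Aldh1a2 cluster, the largest of E10-P56, was lower at 7.11 CPM. No fibroblast-like cluster with at least 50 cells passed 6.98 CPM in the adult pulse. After thinning, Lcn2 was detected in 2.19% of E10-P56 fibroblast-like cells, against 0 of 140 Schwann-like cells of that library, and in 0.181% of adult pulse ones, against 0 of 397 pericyte-like cells there (median 3203 UMIs before thinning), which allows up to 0.756%.

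Serpina3n, a secreted inhibitor of serine proteases, was the most widely detected of the 9 in E10-P56. It was found after thinning in 22.0% of E10-P56 fibroblast-like cells (20.8 to 23.3) and 4.81% of adult pulse ones (4.33 to 5.33), against 1.62% and 1.01% of pericyte-like cells of the same libraries. In the adult pulse Il1r2 was detected at a similar share after thinning, 4.92%. The fibroblast-like level of Serpina3n was 286 CPM (281 to 291) in E10-P56. Osteochondral-like, tenocyte-like and cycling-like cells followed at 124, 101 and 88.6 CPM, with each neighbouring pair overlapping.

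Serpina3n was spread over clusters and cells, with 247 cells needed for 50% of its fibroblast-like counts in E10-P56. It reached 479 CPM in Ctla2a, 426 CPM (386 to 470) in Gdf10 Fmo2 Inmt and 350 CPM in Krtdap Bmp3 Dmkn, and was lowest at 48.2 CPM in Trf Apod Col9a2. In the adult pulse Gdf10 Fmo2 Inmt led with 155 CPM (147 to 164), and the other clusters of at least 50 cells lay between 8.61 and 63.3 CPM. In that library osteochondral-like cells held more than fibroblast-like cells, 93.1 CPM (72.4 to 118) against 44.2 CPM. Serpina3n belongs to a family of similar tandem copies, and reads shared with them may not have been counted.

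Il6, the cytokine that induces much of the acute-phase response, was highest in SMCP-like cells in both libraries. It was at 66.6 CPM (57.0 to 77.4) in E10-P56 and 134 CPM (109 to 163) in the adult pulse. Cycling-like (33.3 CPM) and fibroblast-like cells (26.9 CPM) followed in E10-P56, and fibroblast-like (22.2 CPM) and tenocyte-like cells (18.1 CPM), whose intervals overlap, in the adult pulse. Detection after thinning was 2.66% of SMCP-like and 2.38% of fibroblast-like cells in E10-P56, and 4.38% and 1.70% in the adult pulse, with overlapping intervals in both. Some SMCP-like cells held many Il6 UMIs, up to 39 and 41 in 1 cell. Overlapping intervals do not show equal shares, so how far the share of cells added to the SMCP-like level is not resolved.

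Among fibroblast-like clusters Il6 was highest in a different cluster in each library. In E10-P56 it was at 56.4 CPM (51.5 to 61.6) in Car3 Apoc1 Cxcl13 and 34.3 CPM in Ctla2a, and in the adult pulse at 81.4 CPM (75.6 to 87.6) in Gdf10 Fmo2 Inmt and 29.0 CPM in the Smpd3 cluster. The Gdf10 cluster of E10-P56 held 16.6 CPM. Schwann-like cells of E10-P56 had 1 Il6 UMI and none of 140 with a UMI after thinning.

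Ptx3 encodes a long pentraxin, a soluble pattern recognition protein made at sites of inflammation. Fibroblast-like cells led in both libraries, with 196 CPM (192 to 200) in E10-P56 and 59.0 CPM (57.1 to 61.0) in the adult pulse. In E10-P56 cycling-like cells held 100.5 CPM and every other type of at least 50 cells under 36 CPM, and in the adult pulse osteochondral-like cells came next at 24.3 CPM.

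Its clusters were Ctla2a (391 CPM), Car3 Apoc1 Cxcl13 (263 CPM) and Krtdap Bmp3 Dmkn (116 CPM) in E10-P56. In the other library they were, of those with at least 50 cells, the Smpd3 cluster (165 CPM) and Gdf10 Fmo2 Inmt (113 CPM). None of these intervals overlap within a library. The 12 adult pulse cells in Car3 Apoc1 Cxcl13 held 146 UMIs (997 CPM, 841 to 1172), of which 87 were in 1 cell. Ptx3 was detected after thinning in 24.9% of Ctla2a cells of E10-P56, against 1.43% of its Schwann-like cells, and in 11.1% of adult pulse Smpd3 cells, against 0.252% of pericyte-like cells there.

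Il1rl1 encodes ST2, the receptor for IL33, and the counts do not tell the transcripts of its alternative starts apart. Cycling-like cells of E10-P56 held 290 CPM (277 to 305) and fibroblast-like cells 88.8 CPM (86.1 to 91.5), and every other type with at least 50 cells was at or under 10.4 CPM. In the adult pulse 36 UMIs were counted in all 8567 cells, 23 of them in fibroblast-like cells (0.389 CPM, an interval that overlaps the tenocyte-like one) and 21 of those in the Smpd3 cluster. Another 12 were in 28 cycling-like cells (21.2 CPM, 10.9 to 37.0), 11 of them in 1 cell. Detection after thinning was 20.5% of cycling-like cells (14.96 to 27.1) and 14.2% of Ctla2a cells (11.8 to 16.9), against 0.714% of Schwann-like cells.

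Among fibroblast-like clusters Il1rl1 stood out in 1. The Ctla2a cluster held 269 CPM (261 to 278), or 3842 of the 4137 fibroblast-like UMIs, and the next, Krtdap Bmp3 Dmkn, 20.6 CPM. Of the 141 cells with at least 10 Il1rl1 UMIs, 85 were in Ctla2a and 50 in the cycling-like cluster. Without the Ctla2a cluster the fibroblast-like level was 9.12 CPM. Cycling-like cells were the deepest of all, at a median of 27738 UMIs in E10-P56.

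Il1r2, the decoy receptor for IL1, was highest in fibroblast-like cells of both libraries, 134 CPM (131 to 138) in E10-P56 and 46.2 CPM (44.5 to 48.0) in the adult pulse. No other type with at least 50 cells passed 22.8 CPM in E10-P56 or 13.9 CPM in the adult pulse. Its clusters were Ctla2a at 244 CPM (236 to 252) and Krtdap Bmp3 Dmkn at 199 CPM (190 to 209) in E10-P56, and the Smpd3 cluster at 164 CPM (156 to 172) in the adult pulse. The 12 adult pulse cells of Car3 Apoc1 Cxcl13 and the 7 of Ctla2a, too few to rank, held 59 and 28 UMIs, of which 50 and 22 were in 1 cell each. Pi16, and not Col15a1, was among the fibroblast markers by which the Ctla2a, Krtdap and Smpd3 clusters were named. Not all clusters followed this. Gdf10 Fmo2 Inmt, named with Col15a1 and not Pi16, came next in the adult pulse at 62.9 CPM. It lay above Fam167a Pcsk6 Olfml2a, which was named with Pi16 and not Col15a1. Smoc2 Lrrtm3 Hsd11b1, named with both, was lowest there at 2.28 CPM.

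When fibroblast-like cells were split by their own counts, Il1r2 was higher on the Pi16 side in both libraries. Cells with more UMIs of a Pi16 list than of a Col15a1 list (1897 in E10-P56, 2855 in the adult pulse) held 227 and 86.8 CPM, and cells with more of the Col15a1 list (2367 and 4283) held 55.5 and 16.4 CPM. Hp lay on the opposite side, with 26.2 and 0.479 CPM in the Pi16 gate and 96.4 and 4.68 CPM in the Col15a1 gate. Within 1 UMI of the cut were 100 E10-P56 and 127 adult pulse cells.

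Between the libraries, 7 of the 9 genes were at least 2-fold higher in fibroblast-like cells of E10-P56, where 4.56% of 12402 genes were, and none was at least 2-fold higher in the adult pulse, where 4.77% of genes were. The contrast is one on which the genes were picked, so nothing is read from the difference. Saa3 stood at 4411 UMIs against 0 and was at least 1868-fold higher in E10-P56, measured against 3 UMIs in the adult pulse. Il1rl1 was 228-fold higher (152 to 361), Hp 22.2-fold (19.0 to 26.1), Lcn2 12.3-fold (10.3 to 14.9) and Serpina3n 6.46-fold (6.19 to 6.74). Ptx3 was 3.32-fold (3.19 to 3.45) and Il1r2 2.90-fold (2.78 to 3.04) higher. Saa1 and Il6 lay nearer to 1, at 1.26-fold (1.04 to 1.53) and 1.21-fold (1.12 to 1.31).

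**Figure D4:**
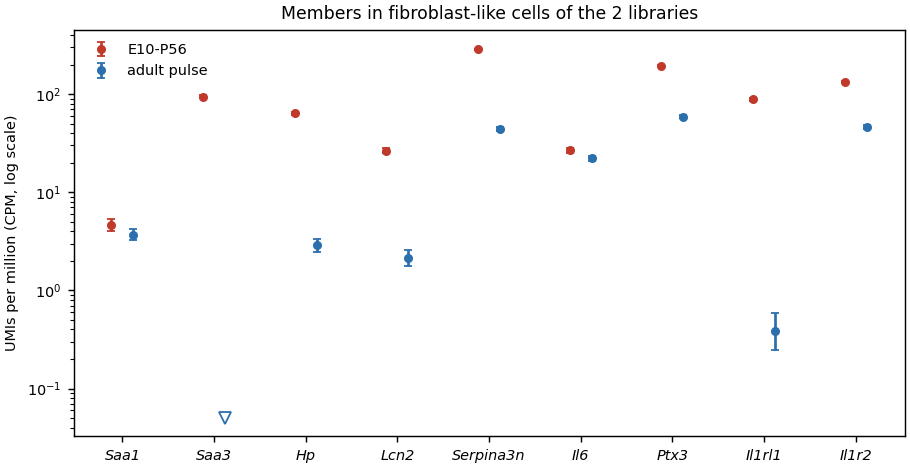
Level of each gene (CPM, log scale) in all fibroblast-like cells of the E10-P56 (red) and adult pulse (blue) libraries, 1 library each, with 95% Poisson intervals that cover counting error only. The open triangle marks Saa3 in the adult pulse, with no UMI, drawn at the level of 3 UMIs, and Saa1 and Il6 are the genes whose points lie closest together.

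The size of several folds rested on the Ctla2a cluster, which had 7 adult pulse cells. Without it, the fold was 23.4 for Il1rl1, at least 414 for Saa3, 1.86 for Ptx3 and 1.87 for Il1r2, so 5 genes rather than 7 were past 2-fold. Without the 1% of cells with the most UMIs of the gene in each library, Saa3 was still at least 132-fold higher. The folds nearest to 1 also rested on single clusters. Without the cluster with the most Il6 UMIs, the Il6 fold was 2.31. Of the 219 adult pulse Saa1 UMIs in fibroblast-like cells, 171 lay in the Trf Apod Col9a2 cluster. The Saa1 fold turned with the cells compared, from 18.3 (8.10 to 51.1) in the Pi16 gate to 0.796 (0.633 to 0.998) in the Col15a1 gate. The Pi16 gate value rests on 94 UMIs against 6.

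Where clusters were held by both libraries, with at least 50 cells of each, the comparison came out differently for some genes. The 4 such fibroblast-like clusters were Aldh1a2, Gdf10 Fmo2 Inmt, Clu Hmcn1 Stmn2 and Trf Apod Col9a2. Serpina3n was higher in E10-P56 in all 4, by 7.46-fold, 2.75-fold, 3.94-fold and 3.33-fold, and each interval lay above 1. Ptx3 was 0.183-fold (0.112 to 0.285) in the Gdf10 cluster and 0.233-fold (0.0462 to 0.727) in the Trf cluster, and 3.49-fold (1.499 to 8.41) in the Clu cluster. The Trf value rests on 3 UMIs against 43, of which 37 came from 1 adult pulse cell.

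Il6 was 0.203-fold (0.116 to 0.332) and Il1r2 0.494-fold (0.330 to 0.713) in the Gdf10 cluster, while Il6 was 3.07-fold (1.63 to 5.87) in the Clu cluster. Lcn2 was 0.148-fold (0.00369 to 0.857) in the Gdf10 cluster, from 1 UMI in E10-P56. Within the Gdf10 cluster, then, Serpina3n was higher in E10-P56 and Il6, Ptx3, Il1r2 and Lcn2 were higher in the adult pulse. The ratio of mean levels over the 4 clusters, each weighted equally, was 0.338 for Ptx3, 0.890 for Il1r2, 0.427 for Il6 and 0.168 for Saa1, for each on the other side of 1 from the fold over all fibroblast-like cells. It was 2.61 for Hp, 1.98 for Lcn2, 3.20 for Serpina3n and at least 3.03 for Saa3, each smaller than the fold over all fibroblast-like cells. The Saa3 value is a bound against 3 UMIs in each adult pulse cluster.

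**Figure D5:**
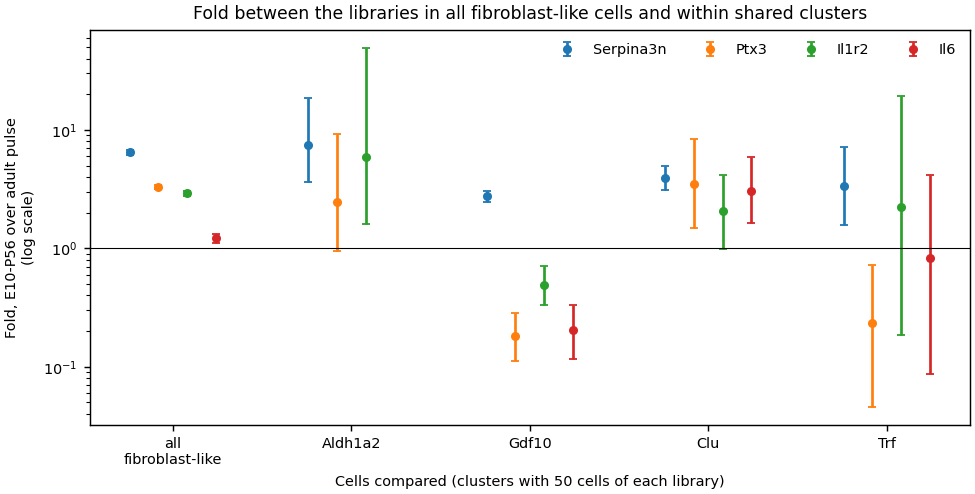
Fold of E10-P56 over the adult pulse (log scale, 95% intervals for counting error) for Serpina3n, Ptx3, Il1r2 and Il6 in all fibroblast-like cells and within the 4 clusters that hold at least 50 cells of each library, with a line at a fold of 1 and no point for Il6 in the Aldh1a2 cluster, where the adult pulse had no UMI. Serpina3n lies above 1 in every cluster, and the other 3 genes fall below 1 in the Gdf10 cluster.

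Outside fibroblast-like cells the same genes differed less evenly. Tenocyte-like cells of E10-P56 held more Serpina3n (5.27-fold, 4.02 to 6.94), Ptx3 (10.5-fold, 5.53 to 21.2) and Lcn2 (2.76-fold, 1.99 to 3.81), and less Il6 (0.410-fold, 0.197 to 0.772). In SMCP-like cells Il6 was 0.498-fold (0.386 to 0.644), while Ptx3 was 13.2-fold (3.55 to 111) and Il1r2 4.06-fold (1.30 to 20.5). The Ptx3 and Il1r2 values rest on 2 and 3 adult pulse UMIs. Saa3 and Serpina3n had no adult pulse UMI in SMCP-like cells and were at least 4.25-fold and 3.58-fold higher in E10-P56. The Saa3 bound rests mostly on 1 cell, which held 36 of the 44 UMIs. In pericyte-like cells, at similar depth in both libraries, Saa3 was at least 6.57-fold higher from 20 UMIs in 432 cells. Those UMIs lay in 18 pericyte-like cells with at most 2 each, a share that served above as background for Saa3. Il1rl1 and Hp, also without an adult pulse UMI in pericyte-like cells, were at least 5.25-fold and 4.60-fold higher, from 16 and 14 UMIs. Serpina3n (0.839-fold, 0.460 to 1.52) and Il1r2 (1.03-fold, 0.541 to 1.97) were not distinguishable in pericyte-like cells between the libraries at this depth.

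Taking the 9 genes as a set, at least 1 was detected after thinning in 39.9% of E10-P56 fibroblast-like cells (38.5 to 41.4) and 13.6% of adult pulse ones (12.8 to 14.4). In E10-P56 the share was 71.1% in Ctla2a, 52.7% in Krtdap Bmp3 Dmkn, 43.2% in Car3 Apoc1 Cxcl13 and 15.03% in the Aldh1a2 cluster, and in the adult pulse 30.4% in the Smpd3 cluster, 28.9% in Gdf10 Fmo2 Inmt and 2.92% in Smoc2 Lrrtm3 Hsd11b1. Pericyte-like cells gave 10.6% and 3.27%, and Schwann-like cells of E10-P56 gave 5%. At least 3 of the genes were found in the same thinned cell in 2.86% and 0.208% of fibroblast-like cells. The largest adult pulse cluster, Smoc2 Lrrtm3 Hsd11b1, did not pass the pericyte-like share of the same library, whose interval (1.75 to 5.53) includes it, and is read as background.

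Whether single cells carried the set as a whole cannot be read from thinned cells, where few UMIs are left for each gene. Without thinning, at least 3 of the genes were found in 21.9% of E10-P56 and 2.71% of adult pulse fibroblast-like cells. In the Ctla2a cluster of E10-P56, whose cells were deeper, the unthinned share was 60.5%. After thinning, cells of E10-P56 with Saa3 had Serpina3n in 43.7% (33.1 to 54.7) against 21.6% of cells without Saa3, and cells with Lcn2 had Serpina3n in 53.7% (43.2 to 64.0) against 21.3%. Cells with Il6 had Ptx3 in 36.9% (27.6 to 47.0) against 9.83%. The adult pulse showed the last pair too, with Ptx3 in 16.4% (10.3 to 24.2) of cells with Il6 against 3.48%. Within the Ctla2a, Car3, Smpd3 and Gdf10 clusters taken singly the share of cells with Ptx3 was also higher among cells with Il6, for instance 53.1% (34.7 to 70.9) against 15.8% in Car3.

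Saa3 and Il1rl1 shared the Ctla2a cluster, but whether they went together in its single cells is not resolved at these counts. In that cluster Il1rl1 was detected in 11.4% of the 35 cells with Saa3 (3.20 to 26.7) and 14.4% of those without, which is no difference beyond counting error. Of the 52 E10-P56 cells with at least 10 Saa3 UMIs and the 141 with at least 10 Il1rl1 UMIs, 8 were in both. That is 15.4% of the former and 5.67% of the latter. Both shares lie above those of high cells among all 6087 E10-P56 cells kept, which differ in cluster and depth. Serpina3n went with Saa3 in the cluster, in 71.4% of cells with Saa3 (53.7 to 85.4) against 35.5%, but not with Il1rl1, with 26.9% (18.8 to 36.2) against 38.9% (35.1 to 42.7), whose intervals overlap. Il1rl1 was detected in 0 of the 31 Ctla2a cells with Lcn2 (0 to 11.2) and in 14.8% of those without (12.3 to 17.6). Ptx3 was found in 38.9% (29.7 to 48.7) of Ctla2a cells with Il1rl1 against 22.6% (19.4 to 26.0).

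Across 27 groups of cluster and library with at least 50 cells, the genes whose log2(CPM + 1) followed each of the 9 most closely were looked up among 12196 genes. The groups share libraries and clusters, so the correlations are descriptions. For Saa3 they were Il1rl1 (r = 0.91), Cxcl5 (r = 0.86) and Gm9755 (r = 0.85), and for Il1rl1 they were Saa3, Serpinb2 (r = 0.90) and Cxcl5 (r = 0.88). Ptx3 was followed by the chemokine gene Ccl8 (r = 0.83), Il1r2 (r = 0.80) and 1700024P16Rik (r = 0.78), and Il1r2 by Tmem26 (r = 0.88), Cxcl13 (r = 0.86) and Plac8 (r = 0.86).

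Serpina3n ran with Ces2g (r = 0.84), the complement gene Cfb (r = 0.83) and Cyb561 (r = 0.75). Il6 ran with Nfkbiz (r = 0.77), an NF-kB cofactor, Rps7 (r = 0.73) and Fam71a (r = 0.70). Hp ran with Col6a5 (r = 0.82), Sgol2b (r = 0.79) and Cxcl13 (r = 0.77), and Lcn2 with Loxl4 (r = 0.84), Met (r = 0.81) and Cgref1 (r = 0.75). Saa1 ran with Grin2b (r = 0.78), Scamp2 (r = 0.76) and Alcam (r = 0.74), and with none of the other 8 genes above r = 0.26. The pair of amyloid genes, close together in the genome, had r = 0.10.

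Most other genes of the same pathways differed by less than 2-fold between the libraries in fibroblast-like cells, but so did most of all 12402 genes. Of these, 4.56% were at least 2-fold higher in E10-P56 and 4.77% at least 2-fold lower. The acute-phase list (4 of 14) and the list of chemokine and other NF-kB target genes (4 of 9) lay above the 4.56% share, and the IL6 family list (0 of 16) below it. The lists were chosen with earlier results known, so these shares are descriptions. Of 14 further acute-phase genes with at least 100 UMIs, 4 were at least 2-fold higher in E10-P56 and none in the adult pulse, with a median log2 difference (adult pulse minus E10-P56) of -0.68 against -0.06 over all genes and -2.69 over the 9. Lrg1, a secreted glycoprotein, was 24.0-fold higher in E10-P56 and Saa2 10.5-fold, while Mt1, which binds metals, was at 1293 and 1478 CPM, Lbp, which binds bacterial lipopolysaccharide, at 349 and 380 CPM, and Serping1, the C1 inhibitor, at 2256 and 1926 CPM. In all, 10 of the 14 differed by less than 2-fold.

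Of 16 genes of the IL6 family and STAT3 pathway none was at least 2-fold higher in E10-P56 and 1 was in the adult pulse, the receptor gene Lifr (58.4 against 129.9 CPM, 2.22-fold), with a median log2 difference of -0.23. Osmr, another receptor of the family, was at 70.4 and 40.1 CPM. Of 15 IL1 family genes 1 was at least 2-fold higher in E10-P56, the IL36 receptor gene Il1rl2 (2.41-fold), with a median of -0.33. The receptor Il1r1, which Il1r2 competes with for ligand, was at 149 and 79.1 CPM, and Il33, the ligand of Il1rl1, at 85.4 and 131.9 CPM. The ligand and its receptor thus differed in opposite directions, Il33 by less than 2-fold.

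Of 18 NF-kB genes 2 were at least 2-fold higher in E10-P56, Bcl3 (2.90-fold) and Nfkbie (2.21-fold), and the inhibitor gene Nfkbia was at 413 and 359 CPM (median of the list -0.32). Of 9 chemokine and other NF-kB target genes 4 were at least 2-fold higher in E10-P56 against 1 in the adult pulse, with a median of -0.98. Cxcl5, which draws in neutrophils, was 770-fold higher (450 to 1446) and Cxcl2 10.6-fold, while Cxcl10, an interferon target, was 3.70-fold higher in the adult pulse. Of 22 immediate early and heat shock genes, which rise when tissue is dissociated, Fosl1 alone was at least 2-fold apart (37.9-fold higher in E10-P56), and the median was 0.36, on the adult pulse side. Fos was at 927 and 1535 CPM and Hspa1b at 1720 and 1980 CPM, so these genes were present in both libraries, and their part in the levels of the 9 was not tested.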

How the data were processed

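Each library came as 1 deposited table of whole-number UMI counts (genes by barcodes, not normalized), which the authors made with Cell Ranger (3.0.2 for the adult pulse, 5.0.0 for E10-P56, per the file headers) on mm10 with tdTomato, CreERT2 and SSM2GFP added. The methods give kit v3 for the E10-P56 muscle, and the kit of the adult pulse is not given in the sources used here. The E10-P56 table sums to 67460919 UMIs and the other to 69153173.

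Barcodes under 1500 UMIs, or with a mitochondrial share over 10%, were left out. Both libraries were clustered together from 2000 variable genes, from which the 9 genes and the response lists were kept out, with 30 principal components, 20 neighbours and Leiden resolution 0.5. Clusters were named from marker lists, with 2 naming rules added after a first run. No doublets were removed, and Scrublet scores served as an alternative. Levels are summed UMIs as CPM with exact Poisson intervals, shares come from cells thinned to 1500 UMIs with Clopper-Pearson intervals, and folds between libraries carry exact conditional binomial intervals, or a floor of 3 UMIs per library group against 0. With 1 library per labelling time no test was run. Background shares cover the 12402 genes whose UMIs in fibroblast-like cells reached 100.

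The 9 genes, the lists and the markers were chosen with earlier results of these data known. Named beside the 9 were, for each, the 3 genes with the highest Pearson r over groups of at least 50 cells (genes with at least 200 UMIs), and from each list the 2 largest folds in each direction and the gene of highest level, of which the text gives a selection. Other genes named were chosen after their values were seen. Of the 28001 feature IDs, 27645 were in the GENCODE annotation. The scripts were tested on simulated data. Python 3.11.15, numpy 2.4.6, scipy 1.17.1, pandas 2.3.3, scikit-learn 1.9.0, python-igraph 0.11.9, leidenalg 0.10.2, scanpy 1.11.5 and matplotlib 3.10.9 were used.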

Additional observations from a re-analysis of the deposited data

Results flagged for a closer look

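Barcodes that the report leaves out also held UMIs of the 9 genes, above the limit that 3 counts allow. In E10-P56 their summed level was 547.779 CPM (2047 UMIs) in the 839 barcodes over the mitochondrial limit and 429.329 CPM (525 UMIs) in the 1310 barcodes under the UMI minimum, against 771.714 CPM in the cells kept. In the adult pulse it was 36.7972 CPM (21 UMIs) in 163 barcodes and 109.494 CPM (47 UMIs) in 465 barcodes, against 166.331 CPM. Hp made up 1109 of the 2047 UMIs over the mitochondrial limit of E10-P56, in 48 barcodes.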

How the results depend on the processing

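Under all alternatives, 5 to 8 of the 9 genes were past the fold limit between the libraries, counted in either direction (7 as reported, all higher in E10-P56). The alternatives include a limit of 4-fold instead of 2-fold. As a mean over clusters with 50 cells of each library, Ptx3, Il6 and Saa1 were counted with the adult pulse higher. Lcn2 (1.98) and Il1r2 were then under 2-fold, so the count alone does not show that the direction held. The count of genes highest in E10-P56 fibroblast-like cells fell from 4 to 2 with the 9 genes and lists allowed among the variable genes. The adult pulse count of 3 was 5 at 5% mitochondrial UMIs, with no mitochondrial limit, at resolution 0.3 and with 20 principal components, and 1 with cells named by their own marker counts. The share of E10-P56 fibroblast-like cells with any of the genes (39.9%) was 34.4% at resolution 1.0, 36.4% with each library clustered alone, 32.4% thinned to 1000 UMIs, 69.004% not thinned, 33.6% without the 2 added naming rules and 33.4% without the Cxcl5 and Ccl2 cluster, the last 2 chosen after seeing the data. The adult pulse share (13.6%) was 14.6%, 10.5%, 32.4% and 15.1% with each library alone, at 1000 UMIs, not thinned and without the added rules. As a mean over the clusters with 50 cells of each library, the folds of Ptx3 (0.338), Il1r2 (0.890), Il6 (0.427) and Saa1 (0.168) fell below 1, where clusters with few adult pulse or E10-P56 cells do not enter. Apart from what the alternatives construct, the cause of these changes was not tested. The folds of Saa1 and Il6, under 2 as reported, ranged from 0.168 to 18.3 and from 0.427 to 2.31. No paired analysis was possible because each labelling time has 1 library.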
